A study of Mus musculus with 25 samples.

Results

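Chromatin accessibility at the genes of CD73 and the adenosine pathway was examined in CD8+ T cells of the mouse that recognize a paternal antigen (T_FGS). The genes were Nt5e, Entpd1, Adora2a, Ada, Dpp4 and Adk. A peak was taken as theirs where its midpoint lay in the gene body, or where the gene had the nearest protein-coding start site in GENCODE vM39 on GRCm39. This gave 21 of 13527 peaks: 7 of Adora2a, 5 of Nt5e, 4 of Dpp4, 3 of Entpd1, 2 of Adk and 0 of Ada. All T_FGS came from spleen and lymph nodes of female C57BL/6 mice and were sorted by binding of a tetramer loaded with OVA peptide; OVA is expressed by the paternal strain, 2W-OVA.BALB/c. Naive mice were untreated (3 libraries), and Sensitized mice had an allogeneic skin graft (4 libraries). N+P mice had a semi-allogeneic pregnancy (3 libraries each of PD1- cells, C1, and PD1+CD73+ cells, C5). S+P mice had both the graft and the pregnancy (4 libraries each of PD1- cells, C4, PD1+CD73+ cells, C5, and PD1+CD73- cells, C7). By the age in the study's methods, the mice were young adults when they were purchased. The labels give no PD1 or CD73 status for Naive and Sensitized cells, and no CD73 status for C1 and C4.

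Extracellular ATP is broken down in steps by ectoenzymes. CD39, encoded by Entpd1, turns ATP and ADP into AMP, and CD73, encoded by Nt5e, turns AMP into adenosine. Adenosine acts on T cells mainly through the receptor encoded by Adora2a, which raises cyclic AMP and restrains activation, and it is removed by adenosine kinase (Adk), which makes AMP from it inside the cell, and by adenosine deaminase (Ada), which makes inosine. Dpp4 encodes CD26, a surface peptidase whose human form holds adenosine deaminase at the cell surface.

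Peaks are named here by gene and by the distance of the midpoint from the gene's start, in the direction of transcription. Of the 21 peaks, 18 lay in introns, 1 between genes, 1 in a coding exon and 1 in an untranslated exon, and 5 had a protein-coding transcript starting no more than 1000 bp away (promoter peaks). Median length was 858 bp, against 963 bp for all peaks. The sequences of 4 peaks on which the results turn are shown, 300 bases around the midpoint on the + strand of GRCm39, with capitals for matches to 8 short motif strings. The first 3 are among the 6 with the smallest likelihood ratio p of the called and promoter peaks, and Adk +60.4 kb was added after its values were seen. The windows are chr9:88214558-88214857 for Nt5e, chr19:40654304-40654603 for Entpd1, chr10:75137544-75137843 for Adora2a and chr14:21162875-21163174 for Adk.
Nt5e +5.6 kb: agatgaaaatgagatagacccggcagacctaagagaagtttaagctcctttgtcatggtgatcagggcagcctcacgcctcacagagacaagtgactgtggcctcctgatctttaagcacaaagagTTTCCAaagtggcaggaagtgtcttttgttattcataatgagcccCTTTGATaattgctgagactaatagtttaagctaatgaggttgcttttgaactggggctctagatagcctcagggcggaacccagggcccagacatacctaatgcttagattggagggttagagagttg
Entpd1 +53.6 kb: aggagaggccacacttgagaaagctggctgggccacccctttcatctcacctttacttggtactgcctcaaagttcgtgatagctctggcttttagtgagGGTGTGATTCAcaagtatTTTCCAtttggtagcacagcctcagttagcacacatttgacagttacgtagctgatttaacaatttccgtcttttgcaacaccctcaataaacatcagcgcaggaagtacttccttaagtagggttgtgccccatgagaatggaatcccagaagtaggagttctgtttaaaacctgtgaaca
Adora2a -14.9 kb: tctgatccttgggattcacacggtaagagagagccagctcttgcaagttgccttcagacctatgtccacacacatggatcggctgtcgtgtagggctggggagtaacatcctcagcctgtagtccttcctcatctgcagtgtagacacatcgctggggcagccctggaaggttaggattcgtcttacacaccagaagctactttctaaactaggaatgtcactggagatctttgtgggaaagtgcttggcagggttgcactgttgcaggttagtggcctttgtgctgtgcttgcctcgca
Adk +60.4 kb: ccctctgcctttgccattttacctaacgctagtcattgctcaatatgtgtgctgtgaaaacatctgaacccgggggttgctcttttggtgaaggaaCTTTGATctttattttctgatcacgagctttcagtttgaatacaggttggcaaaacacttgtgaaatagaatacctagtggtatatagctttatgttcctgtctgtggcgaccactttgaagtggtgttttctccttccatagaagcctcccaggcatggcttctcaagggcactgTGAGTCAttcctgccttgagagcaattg
The strings, searched on both strands, were TGANTCA (AP-1), TGACGT (CRE), CTTTGAT (TCF/LEF), TGTGGTT (RUNX), CCGGAAG (ETS), TGGAAA (NFAT), GGTGTGA (T-box) and TACGTG (hypoxia element). The Nt5e window held 1 TCF/LEF and 1 NFAT string, and the Adk window held 1 TCF/LEF and 1 AP-1 string. Of the 21 member windows 9 held at least 1 of the 8 strings, as did 53.3% of all windows of this length. The median GC content was 47.7% in member windows and 57.3% in all. The TCF/LEF string was in 3 member windows, the third at Adora2a -33.8 kb, and in 4.07% of all. The Entpd1 window held 1 T-box and 1 AP-1 string, which overlap, and 1 NFAT string. AP-1 strings were in 5 member windows and 9.2% of all windows, NFAT strings in 5 and 18.1%, T-box strings in 1 and 5.12%, and RUNX strings in 1 and 10.8%. CRE, ETS and hypoxia strings were in 0 member windows and in 9.68%, 12.7% and 4.28% of all. The Adora2a window held none of the 8 strings, which says only that these letters are not in it. A match is a description of the sequence and no measurement of binding.

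Total counts in peaks ranged from 2430890 to 25419715 per library, with a median of 8197552, so that peaks with few reads are measured least well. All values below are normalized counts, the raw counts divided by the size factor of the library. Each library pools many cells, so a smaller share of cells with an open site and a lower accessibility in every cell cannot be told apart. Promoter peaks were present for 4 of 6 CD8 T cell markers (Cd8a, Cd3d, Cd3e and Cd3g) and for none of 5 B cell, 5 myeloid, 2 NK cell and 3 erythroid markers. Of 5 markers of CD4 or regulatory T cells, 2 had one (Ikzf2 and Il2ra), and Cd4 and Foxp3 had none. The summed normalized counts at the Ikzf2 and Il2ra promoter peaks ranged from 1059 to 1298 in Naive, 819 to 1151 in Sensitized, 1404 to 1532 in N+P C1, 1368 to 1401 in N+P C5, 868 to 1079 in S+P C4, 819 to 975 in S+P C5 and 830 to 924 in S+P C7, so that the C5 groups did not overlap. The 4 CD8 T cell promoter peaks summed to 1771 to 2308 in Naive, 1498 to 2537 in Sensitized, 1700 to 1775 in N+P C1, 1758 to 1849 in N+P C5, 1919 to 2587 in S+P C4, 2106 to 2366 in S+P C5 and 2210 to 2545 in S+P C7, and here S+P C5 was the higher of the C5 groups, without overlap. The part of either sum in the results was not tested. Across all peaks, Sensitized replicates 3 and 4 lay nearest to N+P C5 (r = 0.973 and 0.955), Sensitized replicate 1 nearest to S+P C4 (r = 0.931), Naive replicate 3 nearest to N+P C1 (r = 0.988) and S+P C4 replicate 1 nearest to N+P C5 (r = 0.923). S+P C7 replicate 1 was closer to S+P C5 (r = 0.959) than to its own group (0.954), and S+P C4 replicate 3 closer to S+P C7 (0.938) than to its own (0.937). N+P C1 replicates 1 and 3 lay nearest to N+P C5 (0.982 and 0.979), and N+P C5 replicate 1 nearest to N+P C1 (0.985). Calls lost or gained without Sensitized replicates 3 and 4 are therefore also given.

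All 21 peaks varied over the 7 groups at an adjusted p under 0.1 in a likelihood ratio test, as did 78.4% of all peaks. Shares of all peaks called are given over the peaks that received an adjusted p. A call between 2 groups required a log2 fold change beyond 0.9 in either direction and an adjusted p below 0.1. Of the 21 peaks, 10 were called in at least 1 of 12 contrasts, as were 2978 of all 13527 peaks (22%). These members were Nt5e +5.6 and +53.3 kb, Entpd1 +53.6 and +67.1 kb, Adora2a -16.7, -14.9 and -13.0 kb, Adk +60.4 kb, and Dpp4 +59.9 and +21.4 kb. The 10 were among the 16 members that were not promoter peaks, a class in which 44.4% of all peaks were called in at least 1 contrast. None of the 5 promoter peaks was called, where the share was 4.95% of all promoter peaks. Promoter peaks made up 56.7% of all peaks, so the members are compared with a background that holds more of them.

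**Figure D1:**
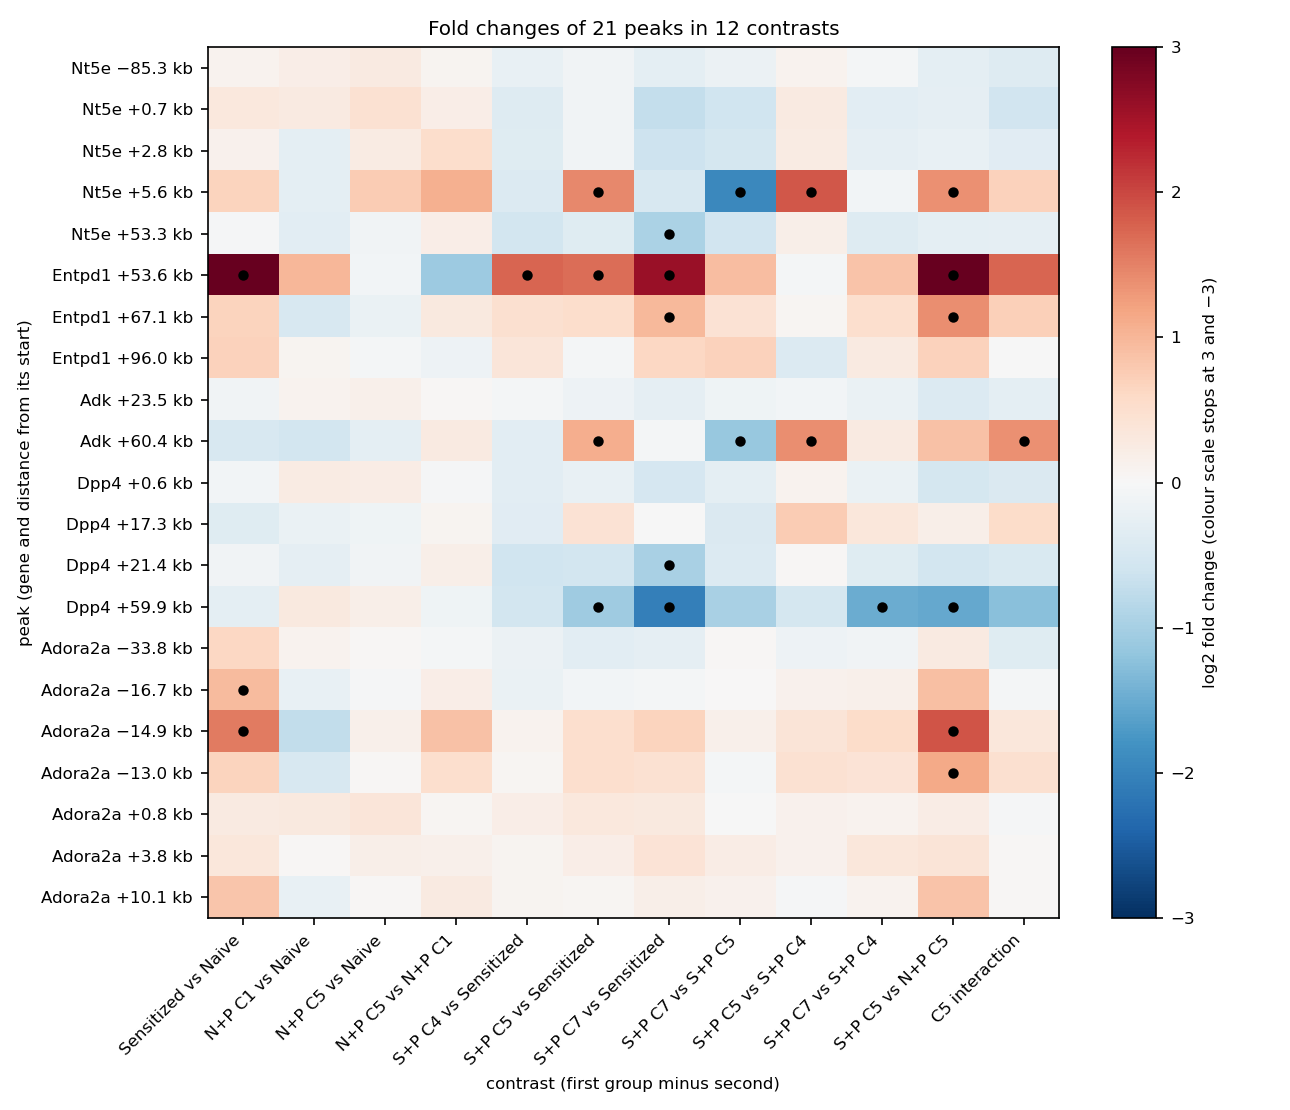
Log2 fold changes of the 21 peaks (rows, by gene and distance from its start) in 12 contrasts (columns, first group minus second). Colour gives the log2 fold change and black dots mark the 25 calls. Dots are absent from the 3 contrasts within Naive and N+P, and Nt5e +5.6 kb and Adk +60.4 kb share dots where S+P C5 is set against Sensitized, S+P C4 and S+P C7.

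Nt5e had its highest values in S+P C5 at 1 site near its start, while its other 4 peaks had their highest mean in N+P C5 or Naive. This site, Nt5e +5.6 kb (chr9:88214398-88215019), lies in an intron of the gene, which spans chr9:88209089-88254146 on the + strand. It is a weak peak: its mean over all libraries, 133, was above that of only 1.43% of all peaks, and its lowest raw count was 30. Naive held 77.1, 55.1 and 94.0, N+P C1 held 68.6, 58.3 and 56.5, and N+P C5 held 112, 112 and 159. Sensitized held 107, 179.7, 77.4 and 119, S+P C4 held 170.1, 70.1, 89.1 and 49.4, S+P C5 held 311, 311, 414 and 275, while S+P C7 held 57.0, 143, 97.8 and 52.1. All 4 S+P C5 libraries were above all other 21 libraries, whose groups overlapped with their neighbours in the order of the means.

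Both C5 groups were sorted for the protein of this gene and C7 for its absence, while the labels give no CD73 sort for Naive, Sensitized, C1 and C4. At Nt5e, differences of a C5 group or C7 from a group that was not sorted in the same way therefore cannot be told apart from the sort and are given as a description of the sorted cells. The mean of S+P C5 was 328 ± 60.3 (SD, n = 4), while Sensitized had 121 ± 43.0, S+P C4 had 94.7 ± 52.8 and S+P C7 had 87.5 ± 42.3 (n = 4 each). It was 2.72-fold higher in S+P C5 than in Sensitized (log2 1.44 ± 0.33 SE, adjusted p = 3.63e-04) and 3.61-fold higher than in S+P C4 (1.85 ± 0.34, adjusted p = 5.40e-06). S+P C7 was 3.82-fold below S+P C5 (log2 -1.93 ± 0.34, adjusted p = 5.89e-06). In S+P C5 against N+P C5, where both groups are PD1+CD73+, the peak was 2.57-fold higher (log2 1.36 ± 0.37, adjusted p = 7.44e-04). This contrast depended on the scaling: with cyclic loess factors, which adjust each library along the range of peak heights, its log2 value was -0.09 (adjusted p = 0.831), and S+P C5 against Sensitized fell to 0.83 (adjusted p = 0.0291), under the fold threshold. The contrasts of S+P C5 with S+P C4 and with S+P C7 kept their calls under each of the 14 alternatives that could lose one.

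In the other 8 contrasts Nt5e +5.6 kb was not called. Its log2 values were 0.67 ± 0.37 in Sensitized against Naive (0.91 and a call, with an adjusted p of 0.0970, without Sensitized replicates 3 and 4), -0.30 ± 0.41 in N+P C1 against Naive and 0.75 ± 0.40 in N+P C5 against Naive. N+P C5 was 2.08-fold above N+P C1 (log2 1.06 ± 0.41) without overlap between the groups of 3, yet with an adjusted p of 1.00 over all peaks and an unadjusted p of 0.00934. The blocked fit, which pairs libraries of the same replicate number, gave 1.02 ± 0.30 (adjusted p = 0.436). S+P C4 and S+P C7 were -0.41 ± 0.35 and -0.49 ± 0.34 against Sensitized, and S+P C7 was -0.08 ± 0.35 against S+P C4. With cyclic loess factors S+P C7 against Sensitized was -1.26 (adjusted p = 2.79e-04), a call. The interaction, S+P C5 minus Sensitized set against N+P C5 minus Naive, was 0.69 ± 0.52 (adjusted p = 0.323; 95% interval -0.33 to 1.71), and pregnancy and the sort cannot be told apart in it.

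**Figure D2:**
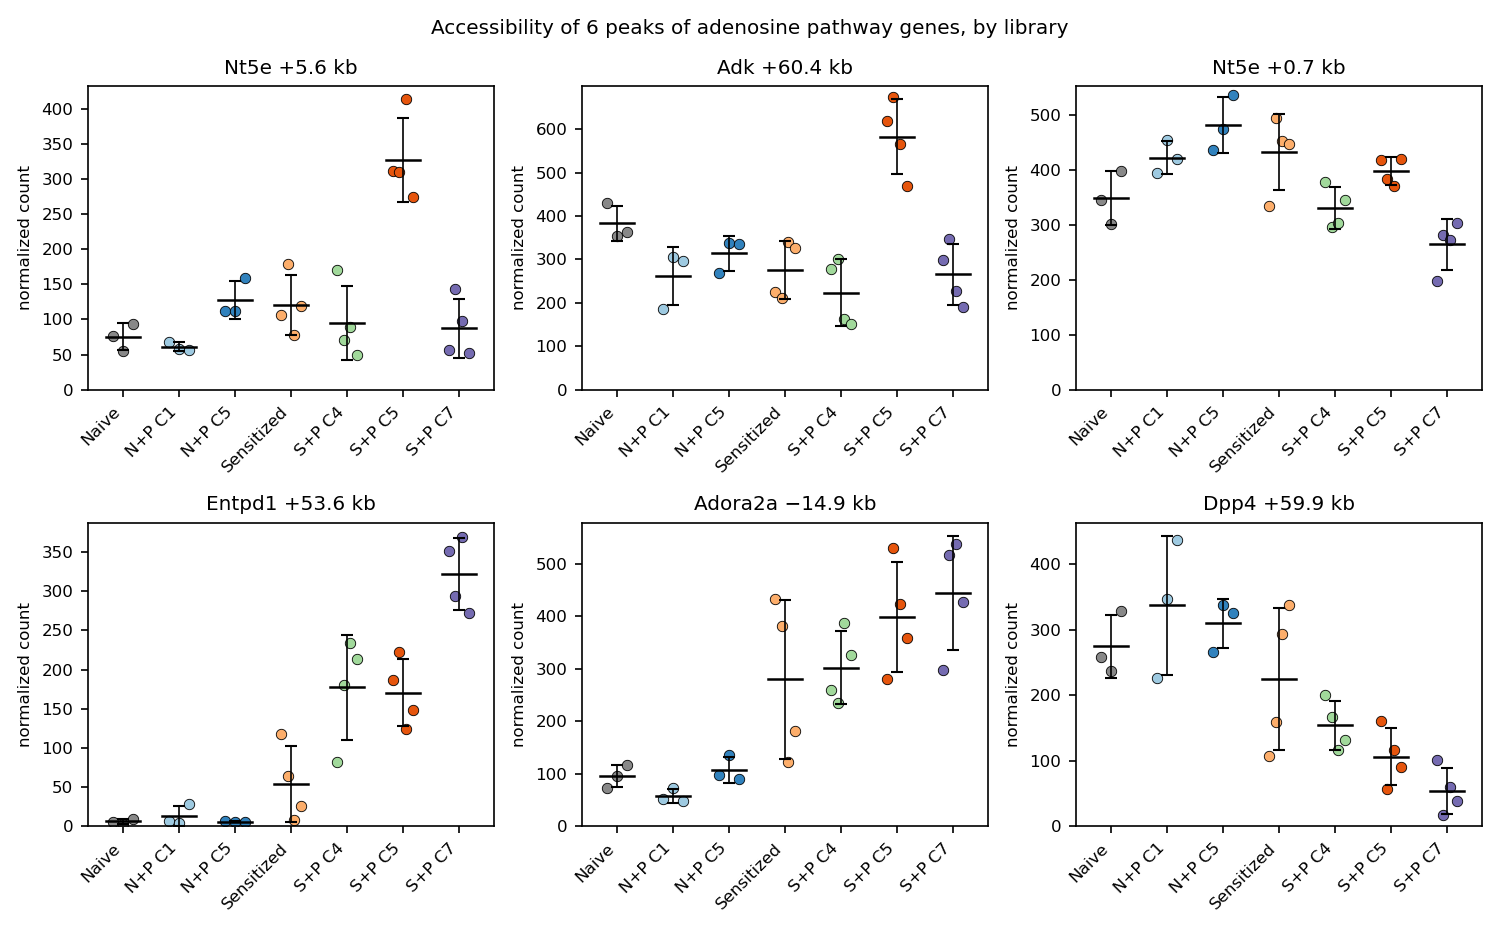
Normalized counts of 6 peaks (vertical axes, from 0) in the 25 libraries of 7 groups; points are libraries, horizontal lines group means and bars SD. At Nt5e +5.6 kb the S+P C5 libraries lie between 275 and 414 and all others at 180 or below, and at Entpd1 +53.6 kb the S+P C7 libraries lie between 272 and 369.

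The other 4 Nt5e peaks had their lowest mean in S+P C7. At the promoter peak Nt5e +0.7 kb (chr9:88209362-88210170, a coding exon) the lowest library was in S+P C7. Naive held 346, 301 and 399, N+P C1 held 394, 454 and 420.1, and N+P C5 held 436, 476 and 536. Sensitized held 334, 494, 453 and 448, S+P C4 held 378, 296, 304 and 345, S+P C5 held 419, 384, 371 and 419, while S+P C7 held 198, 283, 273 and 304. S+P C7 lay below S+P C5 without overlap (log2 -0.60 ± 0.14, adjusted p = 0.00191) and below Sensitized (-0.71 ± 0.14, adjusted p = 7.33e-06), both under the fold threshold. S+P C5 was at -0.27 ± 0.15 against N+P C5 here (adjusted p = 0.110), where +5.6 kb had 1.36.

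At Nt5e +53.3 kb (chr9:88262004-88262861), which lies downstream of Nt5e in an intron of Snx14, S+P C7 held 434, 364, 371 and 344, and Sensitized 581, 910, 677 and 742. S+P C7 was lower without overlap (log2 -0.94 ± 0.18, adjusted p = 1.33e-06), and the value fell under the fold threshold without Sensitized replicate 2 (-0.82) or S+P C7 replicate 4 (-0.90). The remaining values at this peak were 817, 736 and 677 in Naive, 448, 619 and 727 in N+P C1, 529, 689 and 844 in N+P C5, while S+P C4 had 551, 602, 422 and 411 and S+P C5 had 571, 673, 531 and 473. Nt5e +2.8 kb (chr9:88211024-88212786, an intron) had group means from 484 in S+P C7 to 813 in N+P C5, and S+P C7 was below S+P C5 by less than the fold threshold (log2 -0.53 ± 0.14, adjusted p = 0.00756). N+P C5 was above N+P C1 at Nt5e +2.8 kb in 3 of 3 pairs (log2 0.53 ± 0.16, adjusted p = 0.939), and with the replicate block at 0.51 ± 0.11 (adjusted p = 0.0204), under the fold threshold. Nt5e -85.3 kb (chr9:88123564-88124089, between genes) had means from 209 to 291 and was called nowhere. Summed over the 5 peaks, Nt5e reached 2223 ± 92.3 in S+P C5, while S+P C7 had 1424 ± 68.1 (SD, n = 4 each), against 2401 ± 338 in N+P C5 (n = 3), so that the sum over the locus was not highest in S+P C5.

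Entpd1, whose product makes the AMP that CD73 uses, had its highest mean in S+P C7, the CD73- cells, at each of its 3 peaks. No Entpd1 peak was a promoter peak, and all 3 lay in introns of the gene (chr19:40600810-40731585, + strand). At Entpd1 +53.6 kb (chr19:40654254-40654655) the 4 highest libraries were those of S+P C7. Naive held 5.51, 2.95 and 9.46, N+P C1 held 6.64, 4.49 and 28.3, and N+P C5 held 7.04, 5.48 and 4.81. Sensitized held 117, 64.3, 7.45 and 25.5, S+P C4 held 81.7, 180.4, 233 and 214, S+P C5 held 186, 222, 124 and 149, while S+P C7 held 351, 294, 369 and 272. All S+P libraries were above all Naive and N+P libraries, and Sensitized replicates 3 and 4 lay within the range of these. The raw counts behind the Naive and N+P values were only 3 to 15 per library, so folds against these groups are imprecise.

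In Sensitized against Naive the log2 fold change at Entpd1 +53.6 kb was 3.12 ± 0.67 (adjusted p = 5.45e-05), with overlap between the groups, and with cyclic loess factors it was 0.86 (adjusted p = 0.381). Against Sensitized, S+P C4 was at 1.74 ± 0.54 (adjusted p = 0.0434), S+P C5 at 1.67 ± 0.54 (adjusted p = 0.0143) and S+P C7 at 2.59 ± 0.54 (adjusted p = 1.64e-05). The call of S+P C4 was lost without Sensitized replicate 4 (adjusted p = 0.176), S+P C4 replicate 3 (1.58, adjusted p = 0.177) or S+P C4 replicate 4 (1.63, adjusted p = 0.181), and that of S+P C5 with cyclic loess factors (0.59, adjusted p = 0.377). Without Sensitized replicates 3 and 4 together, S+P C4 was at 0.98 (adjusted p = 0.175) and S+P C5 at 0.90 (adjusted p = 0.179), neither called. The call of S+P C7 held under each of the 14 alternatives that could lose it, between 1.36 and 3.33. With both C5 groups, S+P C5 against N+P C5 gave 4.87 ± 0.69 (adjusted p = 3.83e-11), which cyclic loess factors reduced to 1.67.

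S+P C5 against S+P C4 was at -0.07 (adjusted p = 0.974) and with cyclic loess factors at -1.42 (adjusted p = 0.0345), a call. S+P C7 was above S+P C5 at Entpd1 +53.6 kb in 4 of 4 pairs of equal replicate number (log2 0.92 ± 0.53, adjusted p = 0.360, not called). With the replicate number as a block the value was 0.92 ± 0.25 (adjusted p = 0.00259), and in a fit of these groups alone 0.93 ± 0.20 (adjusted p = 2.23e-04), both calls. At Entpd1 +67.1 kb (chr19:40667491-40668427) S+P C7 had the highest mean too. Naive held 147, 113 and 169, N+P C1 held 103, 87.5 and 121, and N+P C5 held 112, 119 and 145. Sensitized held 341, 217, 169.7 and 180.1, S+P C4 held 191, 359.6, 373 and 318, S+P C5 held 283, 392, 306 and 333, while S+P C7 held 422, 472, 487 and 401. S+P C7 again held the 4 highest values of the 25 libraries. It was 0.97 ± 0.21 above Sensitized on the log2 scale (adjusted p = 4.58e-05), which fell under the fold threshold without Sensitized replicate 3 (0.85) or 4 (0.87) and to 0.67 without both. S+P C5 was 1.38 ± 0.24 above N+P C5 (adjusted p = 9.36e-08).

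Entpd1 +96.0 kb (chr19:40696549-40696971), for which the start of Cc2d2b is nearer than that of Entpd1, had means of 135 to 149 in Naive and N+P and of 216 to 347 in the other groups, and it was not called. Sensitized was 0.68 above Naive on the log2 scale (adjusted p = 0.00414), and 0.94 above it without Naive replicate 3 (adjusted p = 5.73e-05), a call. At this peak S+P C7 was above S+P C5 without overlap (log2 0.68 ± 0.17, adjusted p = 0.00366), under the fold threshold. Over the 3 peaks Entpd1 summed to 1115 ± 86.7 in S+P C7, to 770 ± 226 in S+P C4, to 715 ± 80.8 for S+P C5 (SD, n = 4 each) and to 266 ± 22.0 in N+P C5 (n = 3). Against S+P C4, S+P C7 was higher at all 3 peaks (median log2 0.50), and 0 of them were called.

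**Figure D3:**
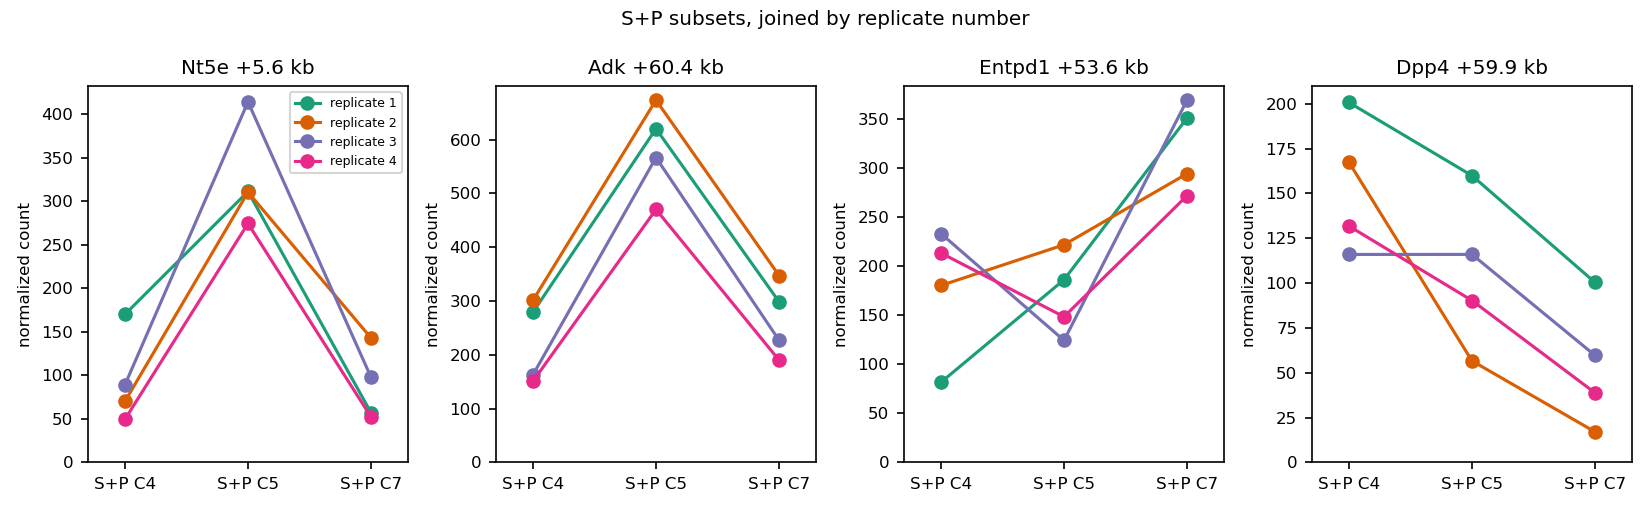
Normalized counts (vertical axes, from 0) of 4 peaks in S+P C4, C5 and C7, with lines joining libraries of the same replicate number. Nt5e +5.6 kb and Adk +60.4 kb peak in S+P C5 along every line, Entpd1 +53.6 kb is highest in S+P C7 and Dpp4 +59.9 kb lowest in S+P C7 along every line.

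Adora2a, the gene of the adenosine receptor, had 1 upstream peak, at -14.9 kb, called higher both in Sensitized than in Naive and in S+P C5 than in N+P C5, and 2 more called in 1 of these contrasts each. The gene spans chr10:75152560-75170628 on the + strand, and its 4 upstream peaks lie in introns of Specc1l. At Adora2a -14.9 kb (chr10:75137253-75138135) the 4 groups with a graft had the highest means. Naive held 73.0, 96.4 and 115, N+P C1 held 52.0, 72.9 and 47.1, and N+P C5 held 96.6, 136 and 89.0. Sensitized held 433, 382, 123 and 181, S+P C4 held 259, 235, 388 and 326, S+P C5 held 281, 529.6, 424 and 359, while S+P C7 held 298, 516, 537 and 427. Sensitized replicates 3 and 4 were the lowest of the libraries with a graft, and Sensitized replicate 3 was the only one of them in the range of N+P C5.

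Sensitized was 1.55 ± 0.35 above Naive on the log2 scale (adjusted p = 1.27e-04), and S+P C5 was 1.89 ± 0.35 above N+P C5 (adjusted p = 4.78e-07). Both kept their calls under all 13 and 12 alternatives that could lose one. S+P C5 against Sensitized was 0.51 ± 0.31 (adjusted p = 0.218) and S+P C7 against S+P C5 was 0.16 ± 0.31 (adjusted p = 0.855), neither called. At Adora2a -13.0 kb (chr10:75139081-75140038) the lowest library was in N+P C1. Naive held 266, 313 and 246, N+P C1 held 237, 221 and 132, and N+P C5 held 257, 289 and 297. Sensitized held 556, 525, 342 and 329.8, S+P C4 held 340.3, 422, 638 and 407, S+P C5 held 499, 874, 612 and 506, while S+P C7 held 511, 768, 589.9 and 538. S+P C5 was 1.14 ± 0.25 above N+P C5 (adjusted p = 2.14e-05), without overlap. Sensitized was 0.67 ± 0.24 above Naive (adjusted p = 0.0399), under the fold threshold, and 0.97 above it without Sensitized replicates 3 and 4 (adjusted p = 0.00132), a call.

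At Adora2a -16.7 kb (chr10:75135487-75136137) the same 4 groups had the highest means. Naive held 145, 180.0 and 125, N+P C1 held 148, 130.1 and 102, and N+P C5 held 145, 138 and 155. Sensitized held 326, 366, 217 and 239, S+P C4 held 201, 222, 304 and 257, S+P C5 held 238, 305, 297 and 251, while S+P C7 held 261, 221, 285 and 324. Every library with a graft was above every library without one at this peak. Sensitized was 0.94 ± 0.20 above Naive (adjusted p = 6.61e-05), close to the fold threshold and under it when Naive replicate 3 (0.81) or either of Sensitized replicates 1 (0.87) and 2 (0.80) was left out, and with cyclic loess factors (0.86). S+P C5 against N+P C5 was just under the threshold at 0.89 ± 0.21.

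The 4 other Adora2a peaks were not called. Adora2a +0.8 kb (chr10:75152329-75154373), the promoter peak, had means from 535 in Naive to 802 in S+P C5, and Adora2a +3.8 kb (chr10:75156050-75156601), also within 1000 bp of a transcript start, from 180 in Naive to 311 in S+P C7. Adora2a +10.1 kb (chr10:75162151-75163148, an intron) had means of 365 to 437 without a graft and of 763 to 867 with one, and Adora2a -33.8 kb (chr10:75118522-75118953) of 174 to 191 and 219 to 270. All 7 peaks were higher in Sensitized than in Naive, 6 of them with an adjusted p under 0.1 and the promoter peak with 0.116. Summed over the 7 peaks, Adora2a held 1838 in Naive (1729 to 1905 over 3 libraries) and 2046 ± 134 in N+P C5 (n = 3), against 2917 ± 639 in Sensitized, while S+P C5 reached 3375 ± 477 and S+P C7 reached 3520 ± 464 (SD, n = 4 each).

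Adk, the kinase that returns adenosine to AMP, was the only other member gene besides Nt5e with a peak called higher in S+P C5 than in both other S+P subsets. Adk +60.4 kb (chr14:21162732-21163319) lies in an intron of the gene (chr14:21102618-21499916, + strand). Naive held 429.8, 355 and 364, N+P C1 held 186, 305 and 296, and N+P C5 held 268, 339 and 337. Sensitized held 226, 210.3, 341 and 325, S+P C4 held 279, 301, 163 and 151, S+P C5 held 620.1, 673, 567 and 470.2, while S+P C7 held 299, 347, 227 and 190.1. All 4 S+P C5 libraries were above the other 21, of which Naive replicate 1 was nearest.

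S+P C5 was above Sensitized by 1.08 ± 0.23 on the log2 scale (adjusted p = 1.01e-04) and above S+P C4 by 1.40 ± 0.24 (adjusted p = 3.99e-07), and S+P C7 was below S+P C5 by a log2 value of -1.14 ± 0.23 (adjusted p = 1.69e-04). In 4 of 4 pairs of equal replicate number S+P C5 was the higher, by 0.96 to 1.32 over S+P C7 and by 1.15 to 1.80 over S+P C4. Against N+P C5 it was 0.89 ± 0.25 higher (adjusted p = 0.00144), just under the fold threshold. The interaction was 1.36 ± 0.36 (adjusted p = 0.00524): the means were 275 in Sensitized and 583 in S+P C5, against 383 in Naive and 314 in N+P C5. The labels give no CD73 sort for Naive and Sensitized, so pregnancy and the sort cannot be told apart in it. This was the only member peak called in the interaction, where 5.97% of all peaks were called, and its calls in these 4 contrasts were kept under every alternative that could lose one (14 for each pair of groups and 20 for the interaction). Without Sensitized replicate 1 the interaction had 4 member peaks called (12% of all peaks), and 2 without Naive replicate 3 (9.77%), Sensitized replicate 2 (6.67%) or S+P C5 replicate 1 (8.24%). Adk +23.5 kb (chr14:21125664-21126568, an intron), the promoter peak near an internal transcript start, had means from 471 in S+P C7 to 681 in N+P C5 and was not called.

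**Figure D4:**
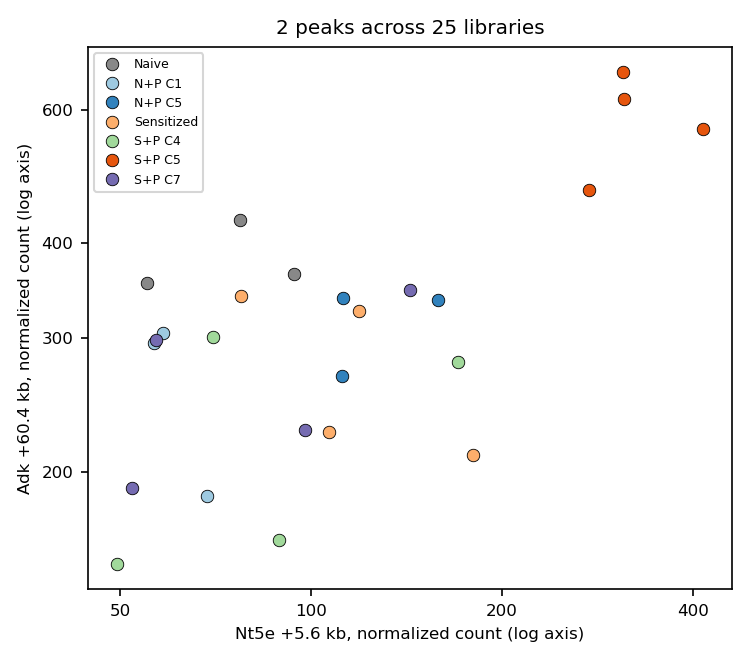
Normalized counts of Nt5e +5.6 kb (horizontal, log axis) and Adk +60.4 kb (vertical, log axis) in 25 libraries, coloured by group. The 4 S+P C5 libraries stand at the upper right, at 275 to 414 and 470 to 673, apart from the other 21.

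Over the 25 libraries the log2 values of the Nt5e +5.6 kb and Adk +60.4 kb peaks had a Pearson r of 0.65, the highest of the other 20 member peaks and the 151st among all peaks. The points share libraries, depth and group structure, so r describes the pattern only. The 5 peaks most like Nt5e +5.6 kb outside 1 Mb of the gene were nearest to or in Stk39 (r = 0.90), Cxcr4 (0.84), Pik3r1 (0.83), Tspan14 (0.82) and Adh4 (0.81). They were picked for this likeness, so a highest mean in S+P C5 is no separate result. Their means there were 317 at Stk39, 480 at Cxcr4, 210 at Pik3r1, 484 at Tspan14 and 408 at Adh4.

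Dpp4, the gene of CD26, had 2 peaks called lower in S+P C7 than in Sensitized. It lies on the - strand at chr2:62159798-62242576. At Dpp4 +59.9 kb (chr2:62182400-62182935, an intron) the lowest mean was in S+P C7. Naive held 259, 237 and 329, N+P C1 held 227, 348 and 437, and N+P C5 held 267, 337 and 326. Sensitized held 108, 159, 294 and 338, S+P C4 held 201, 167, 116 and 132, S+P C5 held 160.0, 56.6, 116 and 90.3, while S+P C7 held 100.4, 17.0, 59.6 and 38.8. Sensitized replicates 3 and 4 were in the range of Naive and N+P, and replicates 1 and 2 in that of S+P.

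S+P C7 was below Sensitized by a log2 value of -2.04 ± 0.39 (adjusted p = 3.18e-06) and below S+P C4 by -1.49 ± 0.40 (adjusted p = 0.00276). S+P C5 was below N+P C5 by -1.54 ± 0.42 (adjusted p = 8.21e-04). The call of S+P C5 against Sensitized (-1.08 ± 0.38, adjusted p = 0.0285) rested on single libraries: without Sensitized replicate 3 it was -0.92 (adjusted p = 0.113), without Sensitized replicate 4 -0.81 (adjusted p = 0.179), without S+P C5 replicate 2 -0.88 (adjusted p = 0.122), and without both Sensitized replicates -0.32 (adjusted p = 0.736). S+P C7 against Sensitized was still called without both (-1.28, adjusted p = 0.0187). S+P C7 was below S+P C5 by -0.97 ± 0.40 (adjusted p = 0.135), a call with the replicate number as a block (-1.04 ± 0.31, adjusted p = 0.00871), without S+P C7 replicate 1 (-1.47, adjusted p = 0.00682) and without S+P C5 replicate 2 (-1.16, adjusted p = 0.0708). The interaction at this peak was -1.25 (adjusted p = 0.104), and it was a call with cyclic loess factors (-1.72, adjusted p = 0.0428), in the fit of the compared groups alone, or without Naive replicate 3, S+P C5 replicate 1 or either of Sensitized replicates 1 and 2 (-1.24 to -1.52).

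At Dpp4 +21.4 kb (chr2:62220442-62221943, an intron) the lowest mean was also in S+P C7. Naive held 1349, 1107 and 1107, N+P C1 held 857, 996 and 1083, and N+P C5 held 949, 1140.3 and 1200.0. Sensitized held 861, 1223, 1112 and 1189, S+P C4 held 868, 855, 596 and 599.6, S+P C5 held 722, 767, 820.5 and 664, while S+P C7 held 599.6, 489, 608 and 540.3. S+P C7 was below all Sensitized libraries (log2 -0.97 ± 0.14, adjusted p = 1.26e-10), and at -0.89, under the fold threshold, without Sensitized replicates 3 and 4. At the promoter peak Dpp4 +0.6 kb (chr2:62241289-62242591) the range was narrower. Naive held 528, 613 and 681, N+P C1 held 712, 705 and 754, and N+P C5 held 679, 761 and 695. Sensitized held 431, 582, 612 and 663, S+P C4 held 558, 453, 373 and 480.5, S+P C5 held 563, 430.1, 466 and 507, while S+P C7 held 471, 395, 361 and 389.7. S+P C5 was below N+P C5 without overlap by -0.53 ± 0.14 (adjusted p = 9.70e-04), under the fold threshold. Dpp4 +17.3 kb (chr2:62224780-62225789, an intron) went another way within S+P mice: S+P C5 had a mean of 676 ± 80.8 and S+P C4 one of 400 ± 53.8 (SD, n = 4 each; log2 0.76 ± 0.18, adjusted p = 9.95e-04), under the fold threshold.

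Ada, the deaminase (chr2:163565705-163592159, - strand), had no peak among the 13527, so nothing can be said of its accessibility beyond that.

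Counted by contrast, 3 members opened in Sensitized against Naive and 0 closed, where 8.62% of all peaks were called, 7.22% opening and 1.4% closing. Against Sensitized, S+P C4 had 1 member opening and 0 closing (0.858% of all called, 0.562% and 0.296%), S+P C5 had 3 and 1 (6.74%, 3.08% and 3.67%), and S+P C7 had 2 and 3 (11.9%, 3.84% and 8.03%). Without Sensitized replicates 3 and 4 the members called in these 4 contrasts were 8, 0, 2 and 3, where 15.2%, 2.31%, 3.25% and 6.96% of all peaks were called. This setting was chosen after seeing the data. The 2 libraries left out are the Sensitized libraries nearest to N+P C5, so a larger distance from Naive follows in part from the choice. The counts are therefore no independent support. The 5 gained in Sensitized against Naive were Adora2a +10.1 kb (log2 1.22, adjusted p = 1.63e-05), Adora2a -13.0 kb, Entpd1 +67.1 kb (0.96, adjusted p = 6.95e-04), Nt5e +5.6 kb and, closing, Dpp4 +59.9 kb (-1.05, adjusted p = 0.0554). Within S+P mice 0 opened and 2 closed in C7 against C5 (2.38%, 0.266% and 2.11%), 2 opened and 0 closed in C5 against C4 (5.12%, 3.12% and 2%), and 0 opened and 1 closed in C7 against C4 (7.73%, 2.48% and 5.25%). With the replicate block, C7 against C5 had 4 (3.33% of all peaks). S+P C5 against N+P C5 had 5 opening and 1 closing (17.2%, 10.3% and 6.97%), and the interaction had 1 positive and 0 negative (5.97%, 3.04% and 2.93%). Without Sensitized replicates 3 and 4 the interaction had 2 (2.36%), the second at Dpp4 +17.3 kb (0.95, adjusted p = 0.0139).

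Without regard to fold size, an adjusted p below 0.1 was reached by 9 members in Sensitized against Naive (20.5% of all peaks), and against Sensitized by 4, 10 and 14 in S+P C4, C5 and C7 (6.54%, 32.9% and 52.9%). It was reached by 7 in S+P C7 against C5 (8.93%), 3 in C5 against C4 (13.3%), 4 in C7 against C4 (22.2%), 15 in S+P C5 against N+P C5 (63.8%) and 2 in the interaction (31.2%). Groups did not overlap at 11 members in Sensitized against Naive (22.7% of all peaks), at 0, 5 and 10 in S+P C4, C5 and C7 against Sensitized (3.96%, 14.7% and 25.5%), at 10 in S+P C7 against C5 (11.5%), at 4 in C5 against C4 (11.7%), at 4 in C7 against C4 (16%) and at 16 in S+P C5 against N+P C5 (62.9%).

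None of the 21 peaks was called among the Naive and N+P groups. In N+P C1 against Naive and in N+P C5 against Naive no member was called by DESeq2 (0.0205% of all peaks in the first, 0% opening and 0.0205% closing, and 0.0262% in the second, 0.0262% opening and 0% closing; 11.9% and 7.87% had an adjusted p below 0.1), with 2 members at an unadjusted p under 0.05 in each (19% and 17.5% of all peaks), and none was called by edgeR. The independent filter of DESeq2 left an adjusted p for only 4 and 1 of the 21 peaks, and with it switched off the lowest adjusted p was 0.196 and 0.141, with 0 members and 0.288% and 0.177% of all peaks called. Without Naive replicate 3 the calls were 160 of 13002 peaks (1.23%) and 157 of 13527 (1.16%), none of them a member. In N+P C5 against N+P C1 no member and no other peak was called (background 0%), with 3 members at an unadjusted p under 0.05 (2.28% of all peaks) and 0 called by edgeR. The replicate block gave 2 calls over all peaks and the fit of these groups alone 9, none of them a member. Groups did not overlap at 6 members in N+P C1 against Naive (27% of all peaks), 4 in N+P C5 against Naive (26.2%) and 5 in N+P C5 against N+P C1 (11.1%), Nt5e +5.6 kb among the last.

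The authors' peak lists per group, which pool the libraries of a group, held 17 member peaks in the S+P C5 list, 14 in that of Sensitized, 13 for S+P C7, 10 for N+P C1, then 9 for N+P C5, 8 for Naive and 1 for S+P C4. The same lists overlapped 82.9%, 71.1%, 64%, 62.9%, 62.2%, 62.6% and 27% of all merged peaks. Nt5e +0.7 kb, Nt5e +5.6 kb and Adora2a -14.9 kb were in the S+P C5 list alone (q = 0.956, 0.820 and 0.911). Entpd1 +53.6 and +67.1 kb were in the S+P C7 list alone, and Adora2a -33.8 kb in the Sensitized list alone. A place in a single list did not always go with the highest counts. At Nt5e +0.7 kb the mean was 398 for S+P C5, below N+P C5 (483), Sensitized (432) and N+P C1 (423). At Adora2a -14.9 kb the mean was 444 for S+P C7, against 398 for S+P C5. Nt5e +5.6 kb, these Entpd1 peaks and Adora2a -33.8 kb had their highest mean in the listed group. The share of all peaks in a single list was not counted. Dpp4 +59.9 kb was in the Naive, N+P C1, N+P C5 and Sensitized lists and in no S+P list.

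Of 49 other genes of adenosine formation, breakdown, transport and sensing 27 had 43 peaks, of which 5 were called in S+P C5 against N+P C5 (1 opening, 4 closing; 11.6%, with a median log2 of -0.10 against 0.00 for all peaks), 3 in Sensitized against Naive (6.98%) and 0 in S+P C7 against S+P C5, where 17.2%, 8.62% and 2.38% of all peaks were called. In S+P C7 4 were called against Sensitized (9.3%, against 11.9% of all peaks) and 3 against S+P C4 (6.98%, against 7.73%), all closing. The list had 1 call in S+P C5 against Sensitized and 1 in the interaction (2.33% each, against 6.74% and 5.97%), and none in the other 5 contrasts. A peak in an intron of Hephl1 nearest to Panx1, which encodes a channel that releases ATP, fell from 347 ± 27.2 in N+P C5 to 125 ± 26.7 in S+P C5 (log2 -1.46 ± 0.22, adjusted p = 1.05e-09), and one in Enpp1, an ectonucleotidase gene, though nearest to the start of Ccn2, from 1327 ± 245 to 682 ± 114 (-0.96 ± 0.23, adjusted p = 1.33e-04). A peak in Bst1, an ectoenzyme gene of NAD metabolism, was higher in S+P C5 than in N+P C5 (0.95 ± 0.19, adjusted p = 8.00e-06) and in Sensitized than in Naive (1.08 ± 0.19, adjusted p = 8.84e-07). Sensitized was below Naive at a peak in Xdh, a purine-degrading oxidase (-0.90 ± 0.39, adjusted p = 0.0960).

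Of 25 genes listed for the cyclic AMP arm downstream of the receptor, 21 had 55 peaks. In S+P C5 against N+P C5 14 were called, 12 opening and 2 closing (25.5%; median log2 -0.07), in Sensitized against Naive 8 (7 opening, 1 closing; 14.5%), and in S+P C7 against S+P C5 0, where 17.2%, 8.62% and 2.38% of all peaks were called. Against Sensitized 8 were called in S+P C7 (14.5%, against 11.9% of all peaks) and 5 in S+P C5 (9.09%, against 6.74%), while against S+P C4 there were 5 in S+P C7 (9.09%, against 7.73%) and 4 in S+P C5 (7.27%, against 5.12%). The interaction had 8 (14.5%, against 5.97%), and the other 4 contrasts had none. The largest of the named changes was at a peak in Prkacb, a catalytic subunit of protein kinase A, with 55.7 ± 9.96 in N+P C5 (n = 3) and 412 ± 106 in S+P C5 (SD, n = 4; log2 2.89 ± 0.32, adjusted p = 4.71e-17), and with 54.1 ± 8.28 in Naive and 230 ± 111 in Sensitized (2.08 ± 0.32, adjusted p = 4.13e-09). Rapgef1, also on the list, encodes a guanine nucleotide exchange factor for Rap1, and its tie to cyclic AMP was not tested. It had 2 peaks higher in S+P C5 than in N+P C5 (2.03 ± 0.26 and 2.11 ± 0.28, adjusted p = 5.54e-13 and 9.00e-13), and 1 higher in Sensitized than in Naive (0.99 ± 0.26, adjusted p = 0.00207). A peak near Pde7a, a phosphodiesterase that breaks down cyclic AMP, was 1.27 ± 0.23 higher in Sensitized than in Naive (adjusted p = 1.12e-06).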

How the data were processed

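Per the labels and the study's methods, the authors trimmed paired reads with Cutadapt 3.4, aligned them to GRCm39 with Bowtie2 2.2.9, discarded multi-mapping reads and, with Picard 2.21.8, PCR duplicates, called peaks per library with Genrich 0.6.1, kept peaks that recurred within a group, (ChIP-R) and summed reads over the union of the lists. Deposited raw counts cover 13527 peaks in 25 libraries. The 7 deposited peak lists give a ChIP-R score, a signal value, a p-value and a q-value per pooled peak, without replicate error.

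Contrasts were taken from 1 DESeq2 1.42.0 fit over all libraries (R 4.3.3) with the group as its only term, median-of-ratios size factors, the Wald test, the independent filter and Benjamini-Hochberg adjustment over all peaks; fold changes were not shrunken and ± gives the SE. The interaction is S+P C5 minus Sensitized minus the difference of N+P C5 and Naive. In a simulation of S+P C5 against N+P C5 with 13527 peaks, 82 of 100 peaks changed 2-fold and 99 of 100 changed 4-fold were called, with 8 calls among the unchanged peaks. The changed peaks were drawn from those above a minimum mean count. Libraries were drawn independently, and all other peaks had equal means in the groups. These rates therefore do not cover peaks with few reads, libraries that stand apart from their group, or the other contrasts. Alternatives were edgeR 4.0.16 (quasi-likelihood test), total-count and cyclic loess scaling (limma 3.58.1), other filters and thresholds, a replicate block and leaving out each library. Columns of the same replicate number share a stem in their names within N+P and within S+P, which is read as the same mouse. The deviations from the group mean correlated at 0.108 to 0.400 between N+P C1 and C5, at 0.103 to 0.572 between S+P C4 and C5, at 0.522 to 0.771 between S+P C5 and C7, and at 0.0639 to 0.666 between S+P C4 and C7. For libraries of different numbers the ranges were -0.334 to 0.0270, -0.685 to 0.440, -0.483 to 0.137 and -0.636 to 0.252, in the same order. The study's methods describe cell suspensions made mouse by mouse, but the labels tie no library to an animal, so p-values measure the spread between these libraries, which may be partly technical. No 2 libraries of a group agreed within sampling noise (chi-square over degrees of freedom 2.81 or more).

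Member genes, lists and motif strings were chosen with earlier results of these data known. Values per library are given for the called peaks and the promoter peak of each gene, at most 12 by smallest likelihood ratio p, all 12 contrasts for Nt5e +5.6 kb, and in the other lists at most 3 called peaks per contrast with the smallest adjusted p. A further peak that this rule names is not reported here. Coordinates are 1-based. Sequences come from the GRCm39 assembly.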

Additional observations from a re-analysis of the deposited data

Results flagged for a closer look

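In 3 of 84 groups of 4 libraries 1 library stood apart from the rest by Dixon's test; chance gives about 1 in 20. Nt5e -85.3 kb was highest in S+P C4 replicate 1, at 296 against 195 to 210 in the other 3 libraries. Adk +23.5 kb was lowest in S+P C7 replicate 2, at 363 against 498 to 525. Entpd1 +96.0 kb was highest in S+P C5 replicate 4, at 239.6 against 207 to 211.

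The interaction, S+P C5 minus Sensitized set against N+P C5 minus Naive, had an adjusted p under 0.1 at 2 member peaks. Pregnancy and the PD1 and CD73 sort cannot be told apart in it, since the labels give no sort for Naive and Sensitized, and Nt5e is the gene of the sort marker. At Adk +60.4 kb the difference was 1.36 (adjusted p = 0.00524). At Nt5e +0.7 kb it was -0.58 (adjusted p = 0.0406), under the fold threshold: the mean went from 348 in Naive to 483 in N+P C5 and from 432 in Sensitized to 398 in S+P C5.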

How the results depend on the processing

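Of the 416 alternative values of the 25 calls of a peak in a contrast, 75 could not lose the call: those without the fold threshold, with the low-count filter, which removed no peak, and with the independent filter off. Of the other 341, 317 kept the call, 23 lost it and 1 turned its sign, and 15 of the 25 calls were kept under each. The sign turned at Nt5e +5.6 kb in S+P C5 against N+P C5 with cyclic loess factors, at a log2 value of -0.09 (-0.0906). The cause was not tested. The replicate block changed no call other than those given for S+P C7 against S+P C5. Leaving out both Sensitized replicates was chosen after seeing the data.

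Shares in parentheses are those of all peaks. Without the fold threshold the members called were 9 in Sensitized against Naive, 4, 10 and 14 in S+P C4, C5 and C7 against Sensitized, 7 in S+P C7 against S+P C5, 4 in S+P C7 against S+P C4, 15 in S+P C5 against N+P C5 and 2 in the interaction (20.5%, 6.54%, 32.9%, 52.9%, 8.93%, 22.2%, 63.8% and 31.2%). With cyclic loess factors they were 1 in Sensitized against Naive, 2 in S+P C5 against Sensitized and 2 in the interaction (7.93%, 6.34% and 6.54%). They added calls at Nt5e +5.6 kb in S+P C7 against Sensitized, at Entpd1 +53.6 kb in S+P C5 against S+P C4, at Adora2a +10.1 kb in S+P C5 against N+P C5 (0.90, adjusted p = 0.00213) and at Dpp4 +59.9 kb in the interaction. In S+P C5 against N+P C5, Adk +60.4 kb, Adora2a +10.1 kb and Adora2a -16.7 kb (0.89, 0.86 and 0.89) passed the fold threshold with total-count factors (0.94, 0.91 and 0.94). In fits of the compared groups alone they were 0 in S+P C4 against Sensitized and 2 in the interaction (0.296% and 5.91%). Without Sensitized replicates 3 and 4 they were 8 in Sensitized against Naive, 0, 2 and 3 in S+P C4, C5 and C7 against Sensitized, and 2 in the interaction (15.2%, 2.31%, 3.25%, 6.96% and 2.36%). The replicate block gave 4 in S+P C7 against S+P C5 (3.33%).

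Leaving out single libraries gave 2 to 4 members called in Sensitized against Naive (6.69% to 10.9%), 0 to 0 in N+P C1 and C5 against Naive (0% to 1.23% and 0% to 1.16%) and in N+P C5 against N+P C1 (0%), 0 to 1, 3 to 4 and 4 to 6 in S+P C4, C5 and C7 against Sensitized (0.488% to 1.94%, 4.61% to 9.29% and 10.3% to 14.5%), 2 to 3 in S+P C7 against S+P C5 (1.3% to 4.47%), 2 to 2 in S+P C5 against S+P C4 (3.6% to 6.16%), 1 to 1 in S+P C7 against S+P C4 (5.75% to 9.59%), 6 to 8 in S+P C5 against N+P C5 (16.2% to 18.7%) and 1 to 4 in the interaction (2.92% to 12%), and 20 to 21 varied over the 7 groups (74.9% to 82.4%).

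Cyclic loess factors moved the summed values of Nt5e in S+P C5 to 2110 and of Entpd1 to 348 in N+P C1, 311 in N+P C5, with 730, 561 and 830 in S+P C4, C5 and C7. The Entpd1 ranges of S+P C4 (398 to 890) and S+P C7 (753 to 927) then overlapped. The loess factors also moved the split of all calls in S+P C5 against N+P C5 from 1390 opening and 943 closing to 997 and 1112, in S+P C5 against Sensitized from 416 and 496 to 229 and 629, and in S+P C5 against S+P C4 from 422 and 270 to 274 and 425, in S+P C7 against S+P C4 from 335 and 710 to 98 and 765, in S+P C7 against Sensitized from 519 and 1086 to 264 and 1174, in the interaction from 411 and 396 to 209 and 675, and in Sensitized against Naive from 977 and 189 to 780 and 293. At a q under 0.05 in the authors' lists, 1 member peak was left in the Sensitized list and 0 in each of the other 6. Low counts limit Entpd1 +53.6 kb most.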
